A study of Tachysurus fulvidraco x Tachysurus vachelli with 9 samples.

Results

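The 5 genes described here are *fkbp5*, LOC113662830 (serine/threonine-protein kinase Sgk1-like), *ddit4*, LOC113655797 (CCAAT/enhancer-binding protein beta-like, C/EBP beta) and LOC113638998 (pyruvate dehydrogenase kinase isozyme 2). They were picked by name from the 26163 genes of the deposited expression table because their transcript levels rose in the Str group relative to the Ctrl group. That rise is described below and was not tested. The same holds for their differences between Rec and Str, which rest on the same Str libraries. RNA was sequenced from the posterior intestine of hybrid yellow catfish (*Tachysurus fulvidraco* × *Tachysurus vachelli*), with 3 fish and 3 libraries in each group. The Rec group was sampled 96 h into recovery in control conditions, once a simulated transport of 16 h in shaken, oxygen-filled bags was over. The Str group was sampled at the end of the transport. The Ctrl group was untreated and, in the study, is the group sampled at the start, before any transport. All groups were the same hybrid, and the fish had been kept off feed before the transport. No source used here states the feeding during transport or recovery, the age of the fish or which bag held which fish. Str fish were sampled after the 16 h and Rec fish after a further 96 h. The time elapsed therefore differs from Ctrl, and feeding and the hour of sampling may differ too. Effects of these and of a shared bag cannot be told apart from those of the treatment.

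In vertebrates, cortisol released under stress acts through the glucocorticoid receptor, a transcription factor held ready in the cytosol by HSP90 and its cochaperones. In mammals, all 5 genes are known as targets of this receptor or of the fasting state, which overlap because cortisol mobilises fuel when food is short. Their products set the receptor's own sensitivity (FKBP5), ion and nutrient transport (SGK1), cell growth through mTORC1 (DDIT4), gluconeogenic and inflammatory transcription (C/EBP beta) and the entry of pyruvate into the citrate cycle (PDK2). Cortisol and blood glucose are not in the table, so the name of the group of genes rests on this background. The related genes reported below were listed with earlier results of these data known and are not independent evidence for the name. No sequence is printed because no reference sequence was used here.

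Levels are given as FPKM, fragments per kilobase of transcript scaled to library size, and fold changes as log2 values fitted by edgeR on the deposited counts. The count totals were between 54829614 and 73110636 per library in Rec, 48605412 and 60279138 in Str, and 60670586 and 63899568 in Ctrl. The 5 genes had at least 100 counts in every library. How the counts relate to reads is not stated. If 4 counts stand for 1 read pair, the lowest value (LOC113662830 in Rec-1) rests on 25 pairs. The mapped read totals of the Str and Rec libraries in the study keep a steady ratio to these count totals under the deposited labels, while its list of valid reads does so only with the Str and Rec entries exchanged. Str-2 stood apart from Str-1 and Str-3 in the hypoxia targets described below, and values without it are given. It also had the lowest sum of smooth muscle markers (5277 FPKM, against 30170 FPKM in Str-1 and 16330 FPKM in Str-3). The labelled tissue was borne out by intestinal epithelial markers, whose 25 loci summed to 12190 to 26200 FPKM in Rec, 3733 to 4564 FPKM in Str and 6970 to 13410 FPKM in Ctrl. By these sums, in which abundant loci weigh most, the Str libraries were the lowest in epithelial markers. They were also the lowest in leukocyte markers (134 to 297 FPKM in Rec and 93.5 to 124 FPKM in Str, against 196 to 451 FPKM in Ctrl). In Str vs. Ctrl, 1 of 21 tested epithelial loci and 5 of 14 tested leukocyte loci were called lower and 0 higher. Over all tested genes 3.1% were called lower. Single loci went the other way, such as LOC113645006 (epithelial cell adhesion molecule-like), with a mean of 107 FPKM in Str and 44.2 FPKM in Ctrl. The part of these shifts in the results was not tested, and in bulk tissue fewer cells of a type and less RNA per cell cannot be told apart.

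*fkbp5* encodes a peptidyl-prolyl isomerase that binds HSP90 and, in mammals, lowers the affinity of the glucocorticoid receptor for its hormone. Values are given in the order of the replicate numbers. The gene lies on scaffold NW_020848416.1 from 10729818 to 10746195 on the minus strand. Its level was 46.8, 43.4 and 52.0 FPKM in the Rec libraries, 1310, 817 and 1249 FPKM in the Str libraries, and 21.1, 11.3 and 13.8 FPKM in the Ctrl libraries. The groups did not overlap in any pair, and the lowest Str library was 38.7 times the highest Ctrl library. The mean was 1125 ± 268 FPKM in Str and 15.4 ± 5.12 FPKM in Ctrl (SD, n = 3 each), and the log2 fold change of 6.18 (standard error 0.48) ranked it 28 among the 17244 genes tested. By level, *fkbp5* ranked 57 to 115 of all genes in the Str libraries and 2452 to 5259 in the Ctrl libraries. Among the Str libraries it was lowest in Str-2, where the other 4 genes were highest. In Rec vs. Str the log2 fold change was -4.45 (standard error 0.44).

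LOC113662830 encodes a kinase of the SGK1 type, which in mammals keeps sodium channels and carriers at the cell surface and phosphorylates FOXO3 and NDRG1. It lies on scaffold NW_020848092.1 from 888365 to 893606 on the minus strand. Its level was 0.991, 1.92 and 3.32 FPKM in the Rec libraries, 98.0, 114 and 90.6 FPKM in the Str libraries, and 3.59, 3.30 and 4.24 FPKM in the Ctrl libraries. The Str libraries differed from each other by no more than 1.26-fold, the narrowest range of the 5 genes, and stood far above both other groups. The log2 fold change was 4.81 (standard error 0.43) in Str vs. Ctrl and -5.51 (standard error 0.45) in Rec vs. Str.

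*ddit4* (also called REDD1) encodes an inhibitor of mTORC1 that acts through the TSC1-TSC2 complex and, in mammals, is induced by glucocorticoids, hypoxia and energy shortage. It lies on scaffold NW_020848090.1 from 695485 to 698013 on the minus strand. Its level was 416, 43.8 and 89.6 FPKM in the Rec libraries, 406, 1644 and 547 FPKM in the Str libraries, and 31.0, 24.99 and 10.7 FPKM in the Ctrl libraries. Every Str library was above every Ctrl library, but Rec-1 was as high as Str-1, so Rec and Str overlapped. *ddit4* varied most of the 5 genes within Rec and within Str, with a 4.05-fold range over the Str libraries and a 9.50-fold range over the Rec libraries. The log2 fold change was 5.29 (standard error 1.03) in Str vs. Ctrl and 4.38 without Str-2. In Rec vs. Str it was -2.18 (standard error 0.90), -1.28 without Str-2 and -3.64 without Rec-1.

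LOC113655797 encodes a bZIP transcription factor of the C/EBP beta type, which in mammals drives gluconeogenic and acute-phase genes. It lies on scaffold NW_020847972.1 from 550127 to 553942 on the plus strand. Its level was 17.3, 13.7 and 35.4 FPKM in the Rec libraries, 191, 326 and 158 FPKM in the Str libraries, and 15.7, 27.7 and 31.6 FPKM in the Ctrl libraries. The Rec and Ctrl libraries interleaved, and all Str libraries lay above both. The log2 fold change in Str vs. Ctrl was 3.26 (standard error 0.43), the smallest of the 5, and 2.86 without Str-2. In Rec vs. Str it was -3.29 (standard error 0.43).

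LOC113638998 encodes the kinase that phosphorylates and switches off the E1 subunit of the pyruvate dehydrogenase complex, which spares carbohydrate in fasted mammals. It lies on scaffold NW_020848306.1 from 2555660 to 2563053 on the plus strand. Its level was 37.8, 9.36 and 5.80 FPKM in the Rec libraries, 429, 670 and 459 FPKM in the Str libraries, and 11.8, 40.7 and 41.0 FPKM in the Ctrl libraries. It had a 6.52-fold range over Rec and a 3.47-fold range over Ctrl, the widest Ctrl range of the 5 genes, while the lowest Str library was 10.5 times the highest Ctrl library. The log2 fold change was 4.18 (standard error 0.77) in Str vs. Ctrl and -4.78 (standard error 0.79) in Rec vs. Str.

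All 5 genes lay above Ctrl in every Str library, a pattern that 14.4% of tested genes showed and that chose these genes, so nothing is read from the count. Between Rec and Str, 4 of 5 lay lower in every Rec library, as 17.2% of tested genes did, and *ddit4* overlapped. Genes chosen for high Str levels are likely to lie lower in Rec, so nothing is read from this count either. No other locus of the table overlaps any of the 5, each is on its own scaffold, and the table gives them no KEGG pathway in common. It lists *fkbp5* under estrogen signaling, LOC113662830 under FoxO signaling and *ddit4* under mTOR signaling. LOC113655797 is under TNF signaling, transcriptional misregulation in cancers and tuberculosis. LOC113638998 is under HIF-1 signaling, axon guidance and central carbon metabolism in cancer. Across the 9 libraries the 10 pairs of genes had a Pearson r of log2(FPKM + 1) between 0.70 (LOC113662830 and *ddit4*) and 0.97 (LOC113662830 and LOC113655797). These values are a description, since every pair shares the Str libraries on which the genes were chosen.

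**Figure D1:**
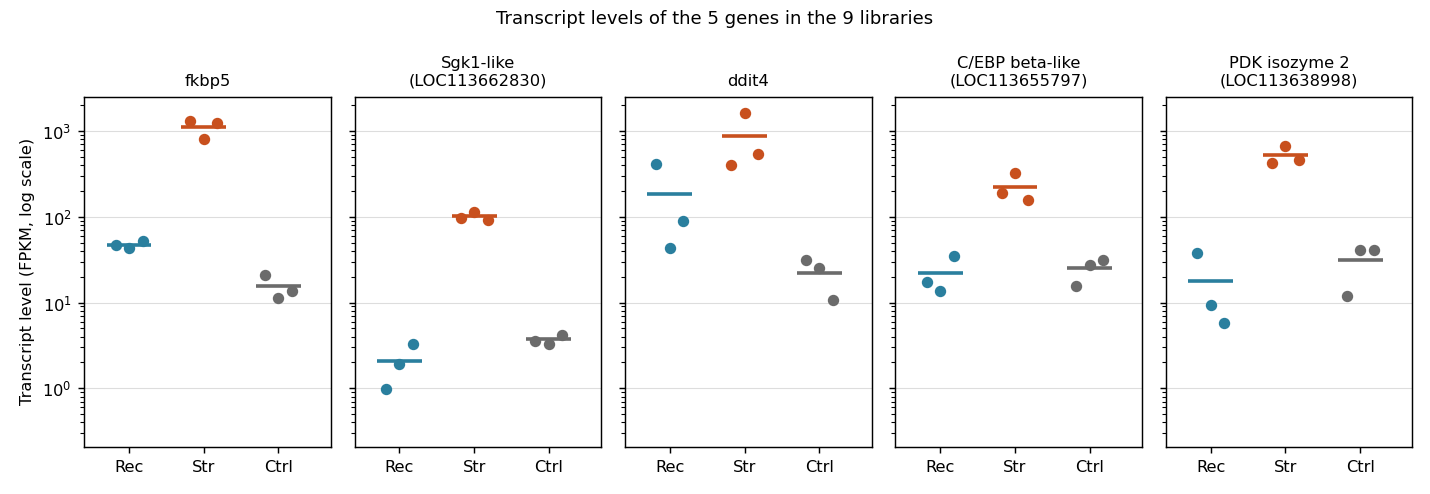
Transcript level (FPKM, log axis) of each gene in the Rec, Str and Ctrl groups, with a point for each library (replicate 1 to 3 from left to right) and a bar at the group mean. The Str points lie above all Ctrl points for each gene, *fkbp5* and *ddit4* are above Ctrl in all Rec libraries, and Rec-1 reaches the Str range for *ddit4* with 416 FPKM.

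The comparison of Rec with Ctrl sets each gene after 96 h of recovery beside its level in untreated fish. In the study Ctrl was sampled at the start, so time, feeding and handling cannot be told apart from recovery in it. The comparison also shares the Ctrl libraries with the contrast that chose the genes. Its standard errors, intervals and p-values use a spread estimated over all 9 libraries, Str included. In the fit of only the 2 groups the log2 fold change was 1.75 for *fkbp5* (edgeR adjusted p = 0.947) and 3.13 for *ddit4* (edgeR adjusted p = 0.947). *fkbp5* was higher in all 3 Rec libraries, with a mean of 47.4 ± 4.34 FPKM in Rec and 15.4 ± 5.12 FPKM in Ctrl (SD, n = 3 each), a ratio of 3.08. The log2 fold change was 1.73 (standard error 0.39, 95% interval 0.85 to 2.61). *ddit4* was also higher in all 3 Rec libraries, with a mean of 183 ± 203 FPKM in Rec and 22.2 ± 10.5 FPKM in Ctrl (SD, n = 3 each), and a log2 fold change of 3.11 (standard error 0.93, 95% interval 1.02 to 5.20) that became 1.66 without Rec-1. All Rec libraries were above all Ctrl libraries in 2 of the 5 genes and in 2.56% of tested genes, and below all of them in 0 of the 5 genes and in 7.42% of tested genes.

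Neither passed the threshold of edgeR's quasi-likelihood test with Benjamini-Hochberg adjustment over all genes, with an adjusted p of 0.809 for *fkbp5* and 0.822 for *ddit4*. That fit called 0% of genes in Rec vs. Ctrl, while 1002 of 17244 genes had an unadjusted p under 0.05, and *fkbp5* had the 33rd smallest p and *ddit4* the 162nd. DESeq2 called 115 genes, *fkbp5* and *ddit4* among them, with an adjusted p of 0.0012 for *fkbp5* and 0.015 for *ddit4*. limma called 0 genes on log2(FPKM + 1), where 1038 had an unadjusted p under 0.05, and over the alternatives other than DESeq2 the calls for both genes did not change.

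The other 3 genes overlapped between Rec and Ctrl. LOC113662830 averaged 2.08 ± 1.17 FPKM in Rec and 3.71 ± 0.478 FPKM in Ctrl (SD, n = 3 each), with a log2 fold change of -0.70 and a 95% interval of -1.54 to 0.15 (edgeR adjusted p = 0.884). For LOC113655797 the log2 fold change was -0.02, with an interval of -0.91 to 0.86 (edgeR adjusted p = 0.998). For LOC113638998 it was -0.60, with an interval of -2.11 to 0.92 (edgeR adjusted p = 0.946), and -1.74 without Rec-1, the Rec library with the highest level of this gene. These intervals leave room for a difference of 1.5-fold or more in at least one direction, so equal levels are not shown.

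**Figure D2:**
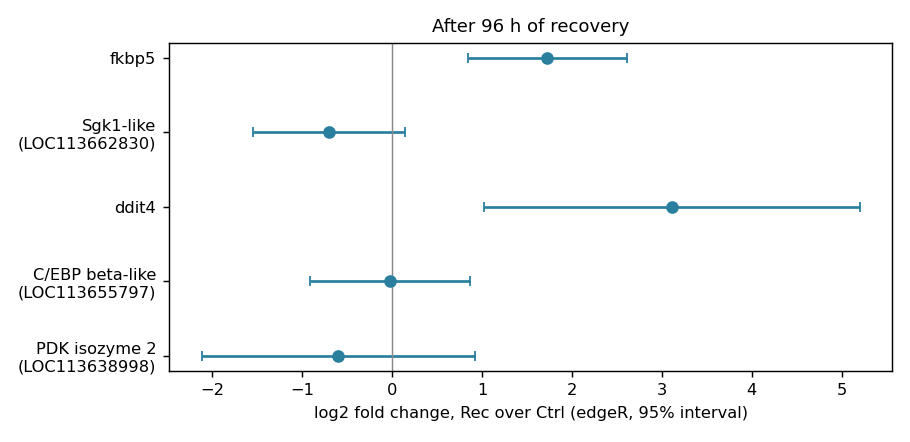
The log2 fold change of each gene in Rec over Ctrl with its 95% interval from the edgeR fit. The intervals of *fkbp5* (0.85 to 2.61) and *ddit4* (1.02 to 5.20) lie above 0 before adjustment over all genes, and those of the other 3 genes include 0.

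Of the loci that share a gene family with the 5 genes, 1 was called by edgeR in Str vs. Ctrl (*cebpd*). Of 15 other FKBP family loci, which include the cochaperone *fkbp4* and *aip*, 13 were tested. None was called by edgeR in Str vs. Ctrl (0 of 13, against 5.88% of all tested genes), with log2 fold changes from -1.44 to 0.73. DESeq2, which called 2540 genes in Str vs. Ctrl, called 2 of these loci lower. *fkbp4*, whose product binds HSP90 as FKBP5 does and in mammals promotes receptor entry into the nucleus, had 4.70, 4.44 and 3.31 FPKM in the Str libraries, against 5.34, 10.6 and 11.8 FPKM in the Ctrl libraries. Its 3 Str values lay below all Ctrl values, but the log2 fold change of -1.06 did not pass (edgeR adjusted p = 0.119). *fkbp3*, a nuclear FKBP, was called in Rec vs. Str, with a log2 fold change of 1.30 (standard error 0.28, edgeR adjusted p = 0.0264), in a comparison where 9.15% of all tested genes were called. It was not called without Rec-2, Str-2 or Str-3, nor in the fit of only the 2 groups.

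In the SGK family a separate locus carries the symbol *sgk1*, and it did not pass in Str vs. Ctrl. *sgk1* had 55.6, 17.7 and 153 FPKM in the Rec libraries, 11.4, 69.5 and 57.3 FPKM in the Str libraries and 30.9, 19.3 and 27.1 FPKM in the Ctrl libraries, so all groups overlapped. Its log2 fold change in Str vs. Ctrl was 0.86 (edgeR adjusted p = 0.559). *sgk2* and *sgk3*, kinases of the same family, had log2 fold changes of -0.40 and -0.07, and a further Sgk1-like locus, LOC113658296, stayed below 1 FPKM in every library and was not tested. In Ctrl the *sgk1* locus was the more abundant of the SGK1-type loci, and in all 3 Str libraries LOC113662830 was (both on the FPKM scale).

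In the DDIT4 family, *ddit4l*, a related mTORC1 inhibitor, had a log2 fold change of 0.84 and LOC113654890 (DDIT4-like protein) one of 0.79, neither called. LOC113639893, also a DDIT4-like locus, was too rarely above 1 FPKM to be tested and had 0.41, 90.01 and 1.53 FPKM in Str-1, Str-2 and Str-3, against 0.369, 0.204 and 0.346 FPKM in the Ctrl libraries. Its Str-2 value stands alone.

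Among the 5 other C/EBP loci, *cebpd*, whose product pairs with C/EBP beta and is a known glucocorticoid target in mammals, also rose. It had 184, 81.8 and 68.0 FPKM in the Rec libraries, 321, 314 and 605 FPKM in the Str libraries and 25.5, 24.4 and 54.3 FPKM in the Ctrl libraries. No groups overlapped, and the log2 fold change in Str vs. Ctrl was 3.64 (standard error 0.52, edgeR adjusted p = 0.0111). In Rec vs. Ctrl its log2 fold change was 1.87 (edgeR adjusted p = 0.812), above Ctrl in every Rec library but not past the threshold. With DESeq2, 1 locus of the CEBP family and CHOP list, which holds *cebpd*, was called higher in Rec vs. Ctrl. *cebpa* had a log2 fold change of 0.18 in Str vs. Ctrl and did not pass. Of the pair of *cebpg* loci 1 fell in Rec vs. Str (log2 fold change -1.87, edgeR adjusted p = 0.0224). That call was lost without Str-2 or Str-3 and in the fit of only the 2 groups.

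Of the pyruvate dehydrogenase kinases, *pdk1*, *pdk3*, *pdk4* and LOC113646974 had log2 fold changes from -1.20 to -0.12 in Str vs. Ctrl, and none was called. *pdk4*, which in mammals is the isozyme best known for its rise in fasting, had 14.0, 33.3 and 12.2 FPKM in the Str libraries, against 21.1, 33.96 and 22.8 FPKM in the Ctrl libraries. Of 16 tested pyruvate dehydrogenase loci (E1, E2 and E3 subunits, kinases, phosphatases and pyruvate carriers) edgeR called none in any of the 3 comparisons. Among all tested genes it called 5.88% (Str vs. Ctrl), 9.15% (Rec vs. Str) and 0% (Rec vs. Ctrl), so the lack of calls in so short a list says little. DESeq2 called 1 locus of the list higher in Str vs. Ctrl. The median log2 fold change of the list there was -0.05 in edgeR, beside -0.002 over all tested genes.

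**Figure D3:**
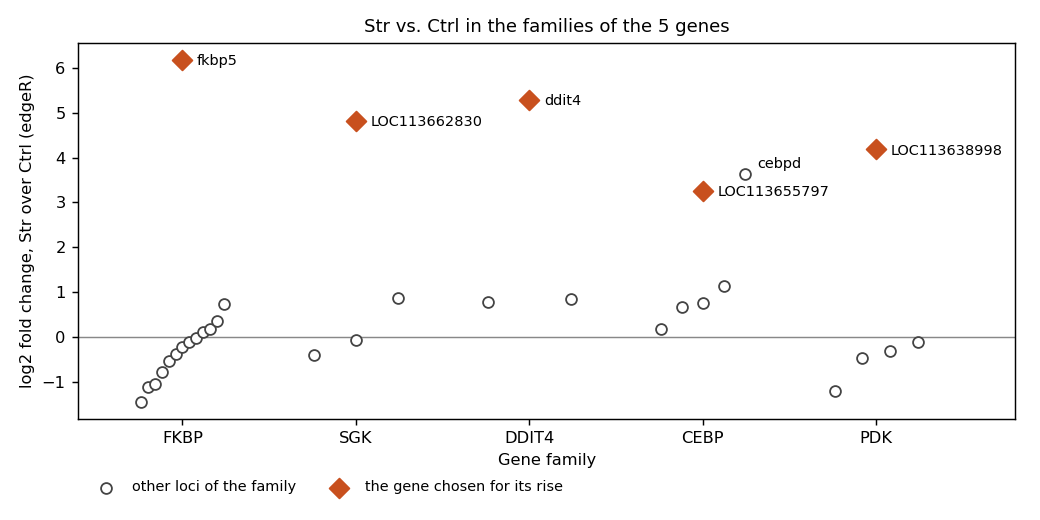
log2 fold change in Str over Ctrl for the tested loci of each family, with the 5 chosen genes as filled diamonds and other loci as open circles. The diamonds lie between 3.26 and 6.18, *cebpd* at 3.64 is the 1 other locus above 1.2, and all loci of the FKBP, SGK, DDIT4 and PDK families other than the chosen genes lie below 1.

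Related genes were read as lists, with the 5 genes left out. The glucocorticoid-responsive genes had the most calls. In Str vs. Ctrl, 8 of 29 tested loci rose in edgeR, 0 fell and 21 did not pass, where 2.78% of all tested genes rose and 3.1% fell. The median log2 fold change was 0.74. DESeq2 called 11 loci of this list higher and 1 lower. *lpin1*, a phosphatidate phosphatase of lipid synthesis and fat oxidation, had 16.3, 20.8 and 15.2 FPKM in the Str libraries, against 0.442, 1.08 and 0.379 FPKM in the Ctrl libraries (log2 fold change 4.85, standard error 0.47, edgeR adjusted p = 0.0029). The paralogous locus LOC113658632 (LPIN1-like) had a log2 fold change of -1.10 and did not pass, and it was among the loci that rose in Rec vs. Str.

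LOC113658258 (ERBB receptor feedback inhibitor 1-like), a brake on epidermal growth factor signaling, rose by a log2 fold change of 3.77 (edgeR adjusted p = 0.0135). *klf9*, a transcription factor that glucocorticoids induce across vertebrates, had 54.2, 137 and 73.9 FPKM in the Str libraries, against 6.57, 10.2 and 12.3 FPKM in the Ctrl libraries (log2 fold change 3.28, edgeR adjusted p = 0.0175). The remaining loci that rose were *cebpd*, LOC113642972 (glutamine synthetase-like), *dusp1*, LOC113636152 (TSC22 domain family protein 3, the GILZ protein of mammals) and *foxo3*. The number that rose was 4 without Ctrl-1, 3 without Ctrl-2, 2 without Ctrl-3 and 4 without Str-3.

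After recovery, in Rec vs. Str, 8 loci of this list fell, 2 rose and 19 did not pass, where 4.11% of all tested genes fell and 5.03% rose, with a median log2 fold change of -0.90 beside 0.03 over all tested genes. The fall was largest for *lpin1* (log2 fold change -5.05, edgeR adjusted p = 0.0039). *klf9* (-3.13), LOC113642972 (-2.92) and *dusp1* (-2.75) followed. The number that fell was 4 without Ctrl-3, 2 without Rec-2, 5 without Rec-3, 4 when Str-1 was left out, 3 when Str-2 was and 1 when Str-3 was. The number that rose was 0 without Rec-2, Str-1 or Str-3 and in the fit of only the 2 groups, 2 without Ctrl-1 and 1 without each of the other libraries. In Rec vs. Ctrl, 0 of 29 passed in edgeR and 1 in DESeq2.

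In the list of the glucocorticoid receptor and its chaperones, the comparison of Str with Ctrl had 2 loci that rose and 2 that fell among the 26 tested, beside 2.78% and 3.1% of all tested genes. A locus of *nr3c1*, the receptor itself, had 14.8, 11.4 and 15.2 FPKM in the Str libraries, against 3.47, 7.08 and 5.46 FPKM in the Ctrl libraries (log2 fold change 1.45, edgeR adjusted p = 0.0228). The other *nr3c1* locus had a log2 fold change of 1.29 and did not pass (edgeR adjusted p = 0.124), and LOC113654878 (glucocorticoid receptor-like) had one of -0.0009. *ncor1*, a corepressor of nuclear receptors, rose by a log2 fold change of 3.03 (edgeR adjusted p = 0.0272).

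*hsd11b1l*, a relative of the enzyme that regenerates cortisol in mammals, fell to 7.56, 12.2 and 5.35 FPKM in the Str libraries, against 31.4, 33.95 and 34.9 FPKM in the Ctrl libraries (log2 fold change -1.94, edgeR adjusted p = 0.0193). LOC113645341 (heat shock cognate 71 kDa protein), an HSP70 chaperone, fell as well (log2 fold change -1.39, edgeR adjusted p = 0.0202). The cortisol-inactivating enzyme *hsd11b2* had 71.5, 70.2 and 78.7 FPKM in the Str libraries, against 104, 58.7 and 175 FPKM in the Ctrl libraries, and the groups overlapped. It was named after its values were seen. None of these 4 calls held without Ctrl-1, Ctrl-2, Ctrl-3 or Str-3.

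The lists around the kinases and mTORC1 had few calls, in comparisons that called 5.88% (Str vs. Ctrl) and 9.15% (Rec vs. Str) of all tested genes. Of 20 tested loci of the SGK1 axis, only *wnk4*, a kinase that controls chloride cotransport, rose in Str vs. Ctrl (log2 fold change 2.601, edgeR adjusted p = 0.0447), at 1.81, 1.67 and 3.74 FPKM in the Str libraries, against 0.0988, 0.761 and 0.431 FPKM in the Ctrl libraries. The recovery comparison had 1 sodium pump alpha subunit locus that rose (LOC113648833, log2 fold change 1.597) and another that fell (LOC113648762, log2 fold change -0.99). Of 24 tested loci of the DDIT4 and mTORC1 axis, *sesn1*, a sestrin that restrains mTORC1, rose in Str vs. Ctrl (log2 fold change 2.20, edgeR adjusted p = 0.015) and *deptor*, an mTOR-binding inhibitor, fell (log2 fold change -1.06, edgeR adjusted p = 0.035). *mtor* itself rose in Rec vs. Str with *deptor* (log2 fold changes 1.04 and 0.91), and *sesn1* and LOC113662807 (thioredoxin-interacting protein-like) fell (-2.09 and -2.01).

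Of 18 tested FOXO and fasting loci, 2 passed in edgeR in Str vs. Ctrl, both higher in Str. Over all tested genes 2.78% were called higher, and the median log2 fold change of the list was 0.77. DESeq2 called 3 loci of the list higher and 3 lower, and edgeR called 2 lower without Rec-3. LOC113639121 (microtubule-associated light chain 3), which marks autophagosomes, had 170, 159 and 189 FPKM in the Str libraries, against 38.1, 29.9 and 32.5 FPKM in the Ctrl libraries (log2 fold change 2.39, edgeR adjusted p = 0.0116). LOC113647079 (insulin receptor-like) rose by a log2 fold change of 1.64 (edgeR adjusted p = 0.0315). Among its fat oxidation genes, *cpt1a*, which admits fatty acids to mitochondria, had a log2 fold change of -1.79 and *ppargc1a*, a coactivator of mitochondrial genes, one of -1.56, and neither passed. After recovery *ppargc1a*, *cpt1a* and LOC113658614 (long-chain acyl-CoA dehydrogenase) rose and LOC113639121 and LOC113647079 fell relative to Str, 5 of 18 loci where 9.15% of all tested genes were called. In Str vs. Ctrl both FOXO calls were lost without Ctrl-3. Only 3 of the 9 fits with 1 library left out called 2 or more FOXO loci higher. The call of *wnk4* was lost without any single Str or Ctrl library or Rec-1. That of *sesn1* was lost without Ctrl-3 or Str-3, and that of *deptor* without any single Str or Ctrl library or Rec-2. The calls of the SGK1, mTORC1 and FOXO lists in Rec vs. Str also fell in number without most single libraries, and without Str-3 only 1 of these 11 loci was called. In the fit of only the 2 groups, 0 loci of each of these lists were called higher in Rec vs. Str. For the mTORC1 list, at most 1 of the 2 rises was kept when any library was left out.

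Of 11 tested ATF4 targets, genes of the amino acid stress response, *chac1*, which degrades glutathione, was the 1 locus called in Str vs. Ctrl, where 5.88% of all tested genes were called (log2 fold change 4.87, edgeR adjusted p = 0.00155), and 1 locus of the list rose with each library left out in turn. The median of the list was -0.15. In the CEBP family and CHOP list, *cebpd* was the 1 call of 6 loci in Str vs. Ctrl, and the number that rose there was also 1 with each library left out.

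**Figure D4:**
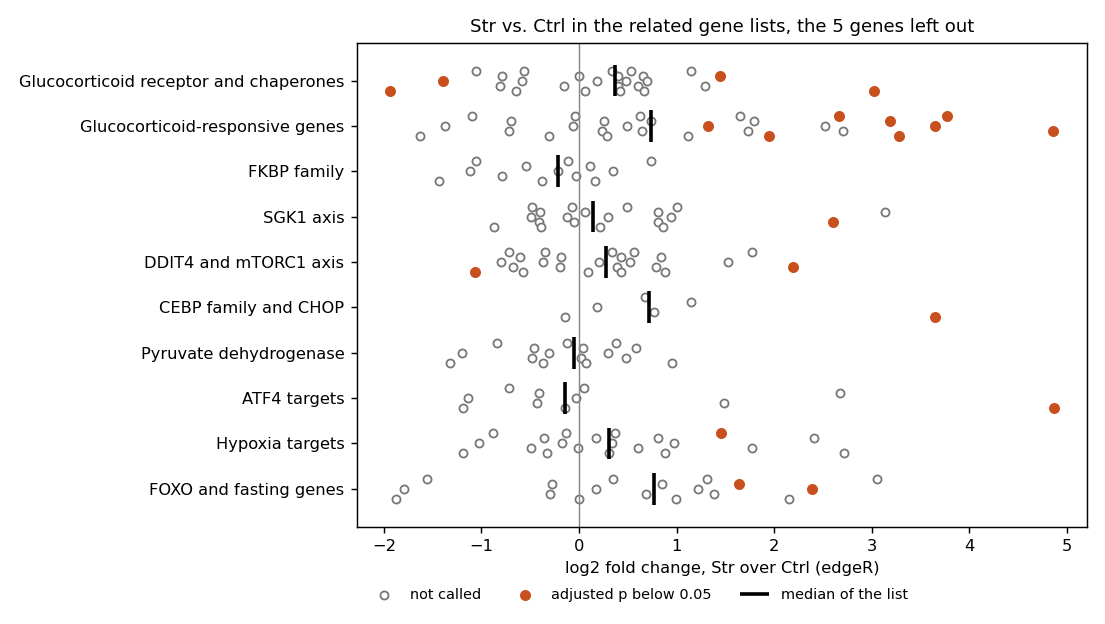
log2 fold change in Str over Ctrl of each tested locus in the related gene lists, with filled points for loci at an adjusted p below 0.05 in edgeR, open points for the rest and a black bar at the list median. Filled points are most frequent among the glucocorticoid-responsive genes (8 of 29) and absent from the FKBP family and pyruvate dehydrogenase lists.

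Within the Str group, Str-2 had the highest level of 4 of the 5 genes and the lowest of *fkbp5*. It also had the highest level of 15 of 21 tested hypoxia targets (71.4%), against 31.5% of all tested genes. *egln3*, the oxygen-sensing prolyl hydroxylase that HIF itself induces, had 5.12, 220 and 7.66 FPKM in Str-1, Str-2 and Str-3, against 17.4, 13.3 and 5.35 FPKM in the Ctrl libraries. *ero1a*, an oxidase of protein folding, had 4.79, 101 and 8.19 FPKM in the Str libraries, against 5.72, 10.9 and 6.60 FPKM in the Ctrl libraries. LOC113661430 (NDRG1-like), a hypoxia target and in mammals an SGK1 substrate, had 228, 1864 and 204 FPKM in the Str libraries, against 528, 413 and 419 FPKM in the Ctrl libraries. These 3 genes were chosen after their values were seen, and all 3 stood high in Str-2 alone.

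As a list, 1 of 21 hypoxia targets was called in Str vs. Ctrl, close to the 5.88% of all tested genes: *adm*, the peptide adrenomedullin (log2 fold change 1.45, edgeR adjusted p = 0.0263), and 0 rose without Ctrl-1, Ctrl-2, Ctrl-3, Str-2 or Str-3. Without Str-2 the log2 fold changes of the 5 genes in Str vs. Ctrl were 6.35 for *fkbp5*, 4.69 for LOC113662830, 4.38 for *ddit4*, 2.86 for LOC113655797 and 3.92 for LOC113638998. The part of hypoxia in the Str-2 levels was not tested, nor was that of the low smooth muscle markers of this library.

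**Figure D5:**
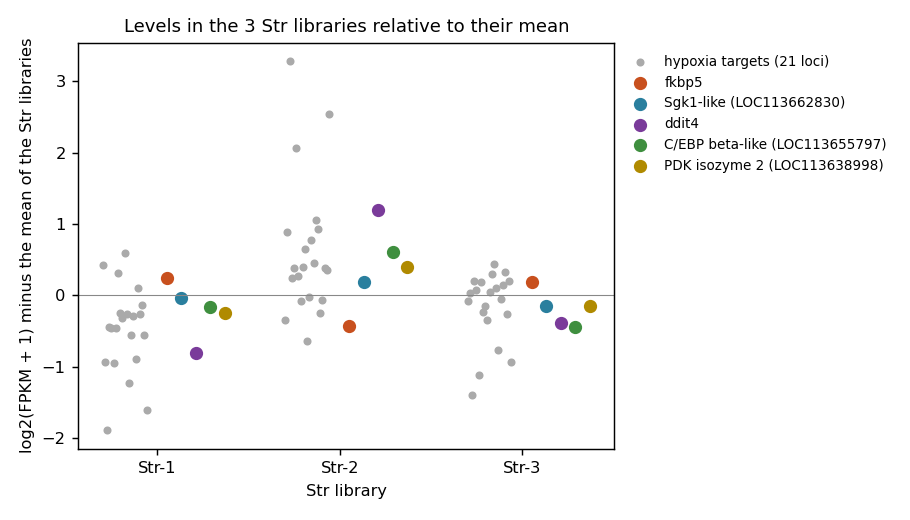
log2(FPKM + 1) in each Str library minus the mean of the Str libraries, for the 5 genes (coloured points) and 21 hypoxia targets (grey points). In Str-2 most grey points lie above 0, as do *ddit4* and 3 more of the 5 genes, while *fkbp5* lies below 0.

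Markers of other cell types were summed to see whether they moved with the 5 genes. The 18 liver marker loci summed to 1472 to 5483 FPKM in Rec, 297 to 426 FPKM in Str and 242 to 515 FPKM in Ctrl, mostly apolipoproteins that intestine also makes. Prothrombin (*f2*) and plasminogen (*plg*) stayed below 1 FPKM in every library, but fibrinogen loci did not. *fgg* averaged 18.6 FPKM in Str and 2.10 FPKM in Ctrl, and *fga* 1.71 and 0.276 FPKM, each higher in every Str library. LOC113640083 (alpha-2-HS-glycoprotein-like) reached 37.2 FPKM in Str-3. LOC113649718 (apolipoprotein A-II) went the other way, with means of 0.154 FPKM in Str and 37.7 FPKM in Ctrl. In Str vs. Ctrl, 0 of 9 tested liver loci were called, against 5.88% of all tested genes. In Rec vs. Str, 2 of the 9 were called higher and 0 lower, where 5.03% of all tested genes were called higher and 4.11% lower. The part of this shift in the Rec values of the 5 genes was not tested. The 12 exocrine pancreas loci summed to 12.8 to 16.7 FPKM in Str and 10.4 to 145 FPKM in Ctrl, with the top value in Ctrl-3. For the steroid producing cells, where fish make cortisol, 3 of 6 markers were matched. Their 3 loci summed to 0.346 to 13.6 FPKM in Rec, 0.247 to 0.696 FPKM in Str and 0.225 to 0.412 FPKM in Ctrl. The top sum came from *star* in Rec-3 (13.3 FPKM, against 0.360 and 0.290 FPKM in Rec-1 and Rec-2). The receptor for the hormone that drives cortisol synthesis (LOC113644143) was at or near 0 in every library. Goblet cell loci summed to 107 to 220 FPKM in Str and 163 to 188 FPKM in Ctrl, red blood cell loci to 87.3 to 407 FPKM in Str and 269 to 1314 FPKM in Ctrl, and smooth muscle loci to 5277 to 30170 FPKM in Str and 7489 to 17880 FPKM in Ctrl, so these overlapped.

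For each of the 5 genes, the 3 candidates with the most similar pattern over the 9 libraries were taken, as a description by Pearson r of log2(FPKM + 1). The 9462 candidates were tested genes outside the 5 that had an informative product name and averaged 5 FPKM or more in at least 1 group. *fkbp5* was most like *loxl3*, a lysyl oxidase of the matrix (r = 0.98, 82.5, 39.6 and 69.0 FPKM in the Str libraries, against 10.7, 7.07 and 6.88 FPKM in the Ctrl libraries), LOC113637861 and *sdad1*. *loxl3* shared the dip of *fkbp5* in Str-2. LOC113662830 was most like *chac1* (r = 0.99), and LOC113634789 (tripartite motif-containing protein 16-like) was also among its 3 genes (r = 0.98).

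*ddit4* was most like LOC113639654 (suppressor of cytokine signaling 3, r = 0.99), which inhibits cytokine receptor signaling, and then *rpusd1* and LOC113658258. LOC113639654 had 77.5, 28.4 and 34.2 FPKM in the Rec libraries, 78.4, 116 and 80.9 FPKM in the Str libraries and 20.5, 22.8 and 17.3 FPKM in the Ctrl libraries, with Rec-1 in the Str range as for *ddit4*. LOC113655797 was most like *pde10a*, a cyclic nucleotide phosphodiesterase, *apmap* and *dffa* (r from 0.985 to 0.997). LOC113638998 was most like LOC113662572 (a JNK-interacting protein), the transcriptional coactivator *wwtr1* and the ubiquitin-conjugating enzyme *ube2r2* (r from 0.98 to 0.99).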

How the data were processed

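Libraries of posterior intestine from 9 fish (3 each of Rec, Str and Ctrl) were sequenced on the Illumina NovaSeq platform. The submitters' processing notes name HISAT and StringTie, with no version. The authors deposited FPKM values per gene and expected counts whose low values peak at 4, 8 and 12. For the genome build and the counting, details are not given in sources used here. All per-sample columns were used.

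The counts were fitted with edgeR 4.0.16 in R 4.3.3 (quasi-likelihood F-test, two-sided, TMM scaling, the 3 groups as 1 factor over the 9 libraries) on the 17244 of 26163 genes that reached 1 FPKM in 3 or more libraries. P-values were adjusted over all of them by Benjamini-Hochberg and called below 0.05. Standard errors were derived from the F statistic. The fit was also run on counts simulated from edgeR's own model and dispersions, which cannot show how well that model describes these libraries. Alternatives were RLE scaling, DESeq2 1.42.0, no filter, limma 3.58.1 on log2(FPKM + 1) and log2(FPKM + 0.1), counts divided by 4, fits of only the 2 groups compared, a replicate block and leaving out each library. List counts under these settings were added after the values were seen.

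The 5 genes and the gene lists were chosen with earlier results of these data known, so the lists are descriptions and not independent evidence. Loci were matched by symbol, or by the first product name where a locus has no symbol, and all matching loci count. From a list and comparison at most 4 loci were to be named: those called with the largest absolute log2 fold change, else those with the smallest p. Further loci are named where a count or an enzyme of cortisol metabolism needed it. Families, lists and cell type markers were otherwise reported as counts. Merged loci and near-identical paralogs could share reads, and antisense reads may be included, since the strand setting is unknown. Promoter sequences were not analysed here, and 1 of the genes most similar in pattern is not reported here.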

Additional observations from a re-analysis of the deposited data

How the results depend on the processing

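Genes called in Str vs. Ctrl numbered 1014 in edgeR, 2540 with DESeq2, 623 with the replicate block and 115 (without Ctrl-3) to 1423 (without Rec-3) with 1 library left out. In Rec vs. Str they numbered 1577, against 3193 with DESeq2, 677 in the fit of only the 2 groups, 893 with the replicate block and 247 (without Str-3) to 1525 with 1 library left out. In Rec vs. Ctrl they numbered 0, against 115 with DESeq2, 1 with limma on log2(FPKM + 0.1) and 0 to 2 (without Rec-1) with 1 library left out. For single genes in Rec vs. Ctrl, DESeq2 gave log2 fold changes of 1.75 for *fkbp5* and 3.13 for *ddit4*, both called, and no other alternative called any of the 5. With 1 library left out these ranged from 1.499 to 2.25 for *fkbp5*, 1.66 to 3.65 for *ddit4*, -1.07 to -0.36 for LOC113662830, -0.42 to 0.20 for LOC113655797 and -1.74 to -0.16 for LOC113638998. LOC113655797, near 0, changed sign in the fit without a filter (0.002) and in that of only the 2 groups (0.01). The causes were not tested.

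No sign was seen that the replicate numbers pair the fish. Deviations from the group means correlated between -0.26 and 0.19 for same-numbered libraries and between -0.313 and 0.296 for others. With 3 libraries a group this check cannot exclude pairing. With the replicate block, the log2 fold change in Rec vs. Ctrl was 1.83 for *fkbp5* and 3.01 for *ddit4*, with no call among the 5 genes. In Str vs. Ctrl and Rec vs. Str no setting changed the direction of any of the 5 genes. With 3 fish a group, single libraries could move the counts of calls strongly.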
